A study of Mus musculus with 13 samples.

Results

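The comparison is between 3 mRNA libraries of mouse melanoma lines titled NLS and labelled t6 and 3 libraries of the same lines labelled t0. The members are the libraries titled NLS at those times, 6 of the 13 libraries analysed here, and each time label has 1 library from each of cell lines 6, 7 and 16. The series concerns doxycycline-induced soluble adenylyl cyclase (sAC) placed in chosen compartments of the cell. The t6 libraries are labelled with 6 h of doxycycline and the nuclear compartment, and the t0 libraries with no doxycycline and no compartment. All 6 come from melanoma cell lines grown in culture, whose strain, sex and further genotype the labels do not give. Beside them stand 3 NLS libraries labelled t48 (48 h of doxycycline, the same lines) and 4 LacZ libraries of lines 10 and 12, at t0 and t48. LacZ t48 carries the nuclear label against its titles, and no LacZ library at t6 was analysed here, so doxycycline itself and the cyclase cannot be told apart at this time. Each group has 1 library per line, and the labels name no separate cultures, so the tests cover only the spread among these libraries, which may be technical in part.

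Cyclic AMP (cAMP) is made by adenylyl cyclases, most of them in the plasma membrane, whereas sAC is a soluble enzyme that responds to bicarbonate and calcium and can work inside organelles and the nucleus. cAMP activates protein kinase A, which phosphorylates the transcription factor CREB at cAMP response elements. In melanocytes this pathway drives Mitf, the master regulator of pigment genes. Doxycycline is the antibiotic that switches on genes under a tetracycline-responsive promoter.

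Adcy10, the mouse gene of sAC (ENSMUSG00000026567, GRCm38 chromosome 1, 165485183 to 165576774, plus strand), followed the cell line and not the time label. In lines 6, 7 and 16, the order of values used throughout, it had 370.2, 179.9 and 1.19 CPM at t6 against 366, 199 and 0.671 CPM at t0. CPM are read counts scaled to the size of the library. The level at t6 was 1.01, 0.904 and 1.77 times that at t0, and the groups overlapped. edgeR's quasi-likelihood test with Benjamini-Hochberg adjustment gave a log2 fold change -0.04, SE 0.071 and an adjusted p = 0.659. Line 16 was near 1 CPM at both labels, and the LacZ libraries had 0 to 0.167 CPM. The sources used here do not say whether the construct has the mouse sequence, so how far these reads report it is unknown. Every result below is therefore a difference between libraries labelled t6 and libraries labelled t0.

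Depth was even, at 18512887 to 22584628 estimated reads per library over the 13. The labelled tissue could be seen only weakly in its markers: Tyrp1, Mlana and Oca2, which make or shape pigment granules, had no reads in the 6 libraries, and Mitf had 4.74 to 5.35 CPM at t6 against 3.41 to 4.21 CPM at t0. Mitf was not called by edgeR's quasi-likelihood test (log2 fold change 0.36). The 14 melanocyte markers summed to 31.5 to 33.7 CPM at t6 against 9.89 to 11.9 CPM at t0, mostly through Gpnmb, a glycoprotein of melanosomes and lysosomes (23.8, 24.1 and 25.5 CPM at t6 against 5.85, 3.904 and 5.61 CPM at t0). Of the 3 tested members, Gpnmb and Rab27a were called higher, beside 20% over all genes. Slc45a2 and Pmel, too scarce to be tested, leaned the other way with overlapping groups. Slc45a2 had 0.228 to 0.566 CPM at t6 against 0.521 to 0.665 CPM at t0, and Pmel 0.0457 to 0.187 against 0.177 to 0.347 CPM. The 11 fibroblast markers summed to 7750 to 9402 CPM at t6 against 9947 to 12180 CPM at t0, mostly collagens. Other members were absent or scarce in the 6 libraries: Lum had no reads, and Thy1 had 0 to 0.0479 CPM. Fap had 0 to 0.390 CPM, Dpt 0.0457 to 0.532 CPM and Dcn 3.41 to 7.03 CPM. Of their 7 tested members 4 were lower and none higher by edgeR's quasi-likelihood test, beside 18.4% and 20% over all genes tested. At an unadjusted p below 0.05 the counts were 4 lower and 2 higher. By DESeq2 3 were lower and 0 higher, beside 12.8% and 14.9%. Without line 6 2 were lower, beside 13.9%, and without line 7 3 were lower and 2 higher, beside 14.7% and 17.7%. Pdgfrb, a growth factor receptor of the list, had 220.7, 202.2 and 211.2 CPM at t6 against 204.6, 197.9 and 188.9 CPM at t0, and Pdgfra 200.1, 248.3 and 157.7 CPM at t6 against 170.5, 254.7 and 140.3 CPM at t0. The 10 leukocyte markers summed to 13.8 to 15.6 CPM at t6 against 12.1 to 12.9 CPM at t0, with Ptprc, Cd3e and Adgre1 at 0 in all 6. Keratinocyte markers summed to 2.47 to 4.02 CPM at t6 against 3.77 to 4.55 CPM at t0, and endothelial markers to 3.46 to 3.75 CPM at t6 against 2.30 to 4.26 CPM at t0. In bulk RNA, fewer cells of a type and less RNA per cell cannot be told apart.

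**Figure D1:**
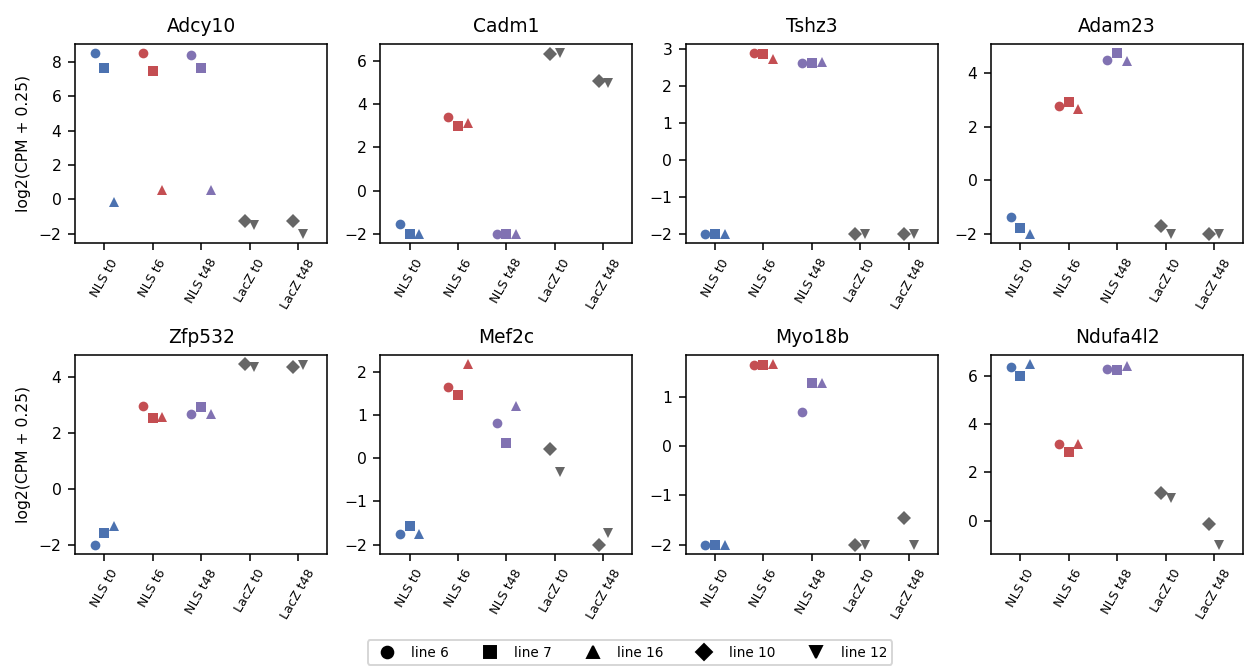
Level of 8 genes in each of the 13 libraries, as log2(CPM + 0.25), by group and time label; each point is 1 library and its shape gives the cell line. Adcy10 follows the line, while Tshz3, Adam23 and Myo18b are at or near 0 in the NLS t0 and LacZ libraries and present in all NLS t6 and t48 libraries, and Cadm1 is present at NLS t6 but at 0 at NLS t48. For genes near 0 at NLS t0, reads in all NLS t6 libraries were part of how they were chosen.

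Small differences were widespread. Of 11556 genes with at least 1 CPM in 3 of the 6 libraries, 4434 (38.4%) were called at an adjusted p below 0.05 when each t6 library was paired with the t0 library of its line. Of these, 2307 (20% of the genes tested) were higher and 2127 (18.4%) lower at t6. Without that pairing 2650 genes were called, 1419 higher (12.3%) and 1231 lower (10.7%). With the pairing but without line 16 the calls were 2902 (13.7% of the genes higher and 11.4% lower). Without line 6 the shares were 16.3% and 13.9%, without line 7 17.7% and 14.7%, and by DESeq2 14.9% and 12.8%. Counts of gene lists given below for these fits stand beside these shares. Some lists also have counts at an unadjusted p below 0.05. The share over all genes at that threshold was not counted and is at least the 38.4% called, so those counts have no share to stand beside. The typical called gene differed by a median of 0.29 on the log2 scale, or 1.22-fold (quartiles 0.20 and 0.45 on the log2 scale), and 298 (2.58% of those tested) were called with at least a 2-fold difference, 185 higher and 113 lower. The median over all genes was -0.0053. The 3 t6 libraries lay wholly above the 3 t0 libraries for 2106 genes (18.2%) and wholly below them for 2042 (17.7%).

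The changes of the 3 lines correlated with each other. Line 6 had 220 genes at least 2-fold higher and 142 at least 2-fold lower at t6, line 7 had 205 and 141, and line 16 had 233 and 152. The part of the lines' Adcy10 levels in these changes was not tested. Across the 11556 genes the correlation between the changes of 2 lines was r = 0.604 for lines 6 and 7, 0.641 for lines 6 and 16 and 0.61 for lines 7 and 16, as a description over genes, which are not independent. Libraries with the same time label differed from each other by a root-mean-square of 0.307 to 0.38 on the log2 scale, and libraries of the same line with different labels by 0.439 to 0.468. The time label thus separated the 6 libraries more than the line did.

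**Figure D2:**
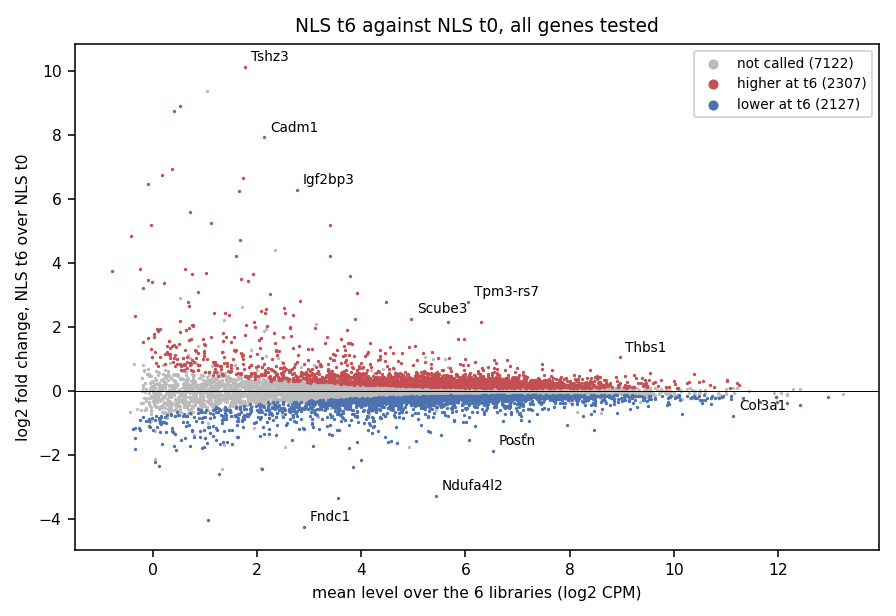
Log2 fold change (t6 over t0) of the 11556 genes tested against the mean level of the 6 libraries in log2 CPM; red and blue points are the 2307 genes called higher and the 2127 called lower. Most called genes lie within 1 log2 unit of 0, the large increases are mainly genes of low level, and fitted values of genes with 0 reads at t0, such as Tshz3, depend on the handling of zeros.

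Among genes averaging at least 20 CPM, the largest increase was in Tpm3-rs7 (GRCm38 chromosome 14, 113314608 to 113316754, plus strand), with 111, 118 and 121 CPM at t6 against 15.1, 16.6 and 18.6 CPM at t0. It had 24.4 to 26.15 CPM at NLS t48 and 126.7 to 150.5 CPM in the LacZ libraries, above all NLS t6 libraries. It is a near-identical copy of the tropomyosin gene Tpm3, so how the reads were shared between the copies is uncertain. Tpm3 itself had a log2 fold change of 0.19, against 2.8, SE 0.062 for the copy. Scube3, a secreted glycoprotein with EGF-like domains, had 53.3, 42.7 and 58.4 CPM at t6 against 10.6, 10.02 and 11.4 CPM at t0 (log2 fold change 2.26, SE 0.072). Lgr6, a receptor for R-spondins, which strengthen Wnt signals, had 105, 72.5 and 109 CPM at t6 against 33.5, 25.2 and 31.8 CPM at t0 (log2 fold change 1.65, SE 0.076). In both genes every t6 library lay at least 2-fold above its own line's t0 library. Robo2, a receptor for the guidance cue Slit, had 55.1, 40.3 and 47.3 CPM at t6 against 18.7, 15.4 and 18.6 CPM at t0 (log2 fold change 1.43, SE 0.074). Nqo1, a quinone reductase and classic target of the oxidative stress factor NRF2, had 99.9, 86.6 and 76.5 CPM at t6 against 27.2, 31.1 and 26.7 CPM at t0 (log2 fold change 1.62, SE 0.072). Nqo1 stayed at 88.3 to 98.5 CPM at NLS t48, whereas Robo2 was at 17.02 to 19.4 CPM there, close to its t0 level.

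The other 7 were Hist1h1c, a linker histone (log2 fold change 1.39, SE 0.086), Actg2, a smooth muscle actin (log2 fold change 1.38, SE 0.062), Ifitm1, an interferon-induced membrane protein (log2 fold change 1.28, SE 0.09), and Adam12, a metalloprotease (log2 fold change 1.24, SE 0.069). Gjc1, a gap junction connexin, had a log2 fold change 1.21, SE 0.10, Arhgef17, an exchange factor that activates small GTPases, 1.2, SE 0.06, and Olfm1, a secreted glycoprotein, 1.19, SE 0.084. Adjusted p-values of the 12 from edgeR's quasi-likelihood test with Benjamini-Hochberg adjustment ran from 2.46e-15 for Tpm3-rs7 to 3.06e-07 for Gjc1. Lines differed in level, and line 7 had less Actg2 than lines 6 and 16 at both labels (48.6, 31.5 and 50.8 CPM at t6 against 18.3, 11.8 and 20.4 CPM at t0). Actg2 is 1 of several closely similar actins, and reads may have been shared among them. In the LacZ libraries of lines 10 and 12, Actg2 had 18.2 and 24.1 CPM at t0 and 51.07 and 69.04 CPM at t48. Olfm1 was lower at t48 there, with 51.6 and 55.02 CPM at t0 and 9.19 and 9.14 CPM at t48.

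The largest decrease was in Ndufa4l2 (GRCm38 chromosome 10, 127514967 to 127517154, plus strand), a mitochondrial protein induced in low oxygen, with 8.73, 6.95 and 8.68 CPM at t6 against 81.9, 63.1 and 89.6 CPM at t0 (log2 fold change -3.26, SE 0.084). The t6 libraries of all 3 lines lay far below every t0 library, and the libraries labelled t48 had 74.4 to 84.04 CPM. Postn, which encodes the matrix protein periostin, had 47.3, 27.4 and 44.2 CPM at t6 against 166, 93.2 and 176 CPM at t0 (log2 fold change -1.86, SE 0.11) and 452 to 594 CPM at t48. Igfbp5, a secreted binder of insulin-like growth factors, had 16.1, 10.5 and 9.82 CPM at t6 against 48.96, 24.5 and 33.9 CPM at t0 (log2 fold change -1.55, SE 0.19) and 594 to 798 CPM at t48. For Postn and Igfbp5 the 3 NLS labels do not follow one direction, since the t6 libraries are the lowest and the t48 libraries the highest. In LacZ lines 10 and 12 Postn had 165 and 169 CPM at t0 against 34.3 and 36.85 CPM at t48. Igfbp5 had 75.05 and 109 CPM at LacZ t0 against 11.03 and 13.1 CPM at LacZ t48. Both genes were thus lower at t48 in LacZ and higher at t48 in NLS. Capn6, a calpain without protease activity, had 58.5, 74.2 and 49.6 CPM at t6 against 161, 222 and 158 CPM at t0 (log2 fold change -1.57, SE 0.048), with line 7 highest at both labels. Col8a1, a short-chain collagen, had 41.5, 25.1 and 38.3 CPM at t6 against 111, 72.6 and 117 CPM at t0 (log2 fold change -1.52, SE 0.057). Neither gene's groups overlapped. Capn6 was higher at t48 in LacZ lines 10 and 12, with 120 and 115 CPM at t0 against 150 and 157 CPM at t48.

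Of the other 7, 4 encode proteins of the cell surface or outside it. These were Prelp, a matrix proteoglycan (log2 fold change -1.63, SE 0.23), Msln, the surface protein mesothelin (log2 fold change -1.58, SE 0.092), Olfml3, a secreted glycoprotein (log2 fold change -1.36, SE 0.061), and Ptprf, a receptor tyrosine phosphatase (log2 fold change -1.28, SE 0.094). Cpne8, a calcium-dependent membrane binder, had a log2 fold change -1.54, SE 0.075, Insc, an adaptor for spindle orientation, -1.42, SE 0.085, and Medag, named for its part in fat cell formation, -1.33, SE 0.044. By edgeR's quasi-likelihood test with Benjamini-Hochberg adjustment the 12 decreases had adjusted p-values from 6.22e-14 for Ndufa4l2 to 0.00292 for Prelp. Non-overlapping groups and 1 direction in each line were part of how these 24 genes were chosen. Within a gene the changes of the 3 lines lay between 0.0198 and 0.557 apart on the log2 scale.

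**Figure D3:**
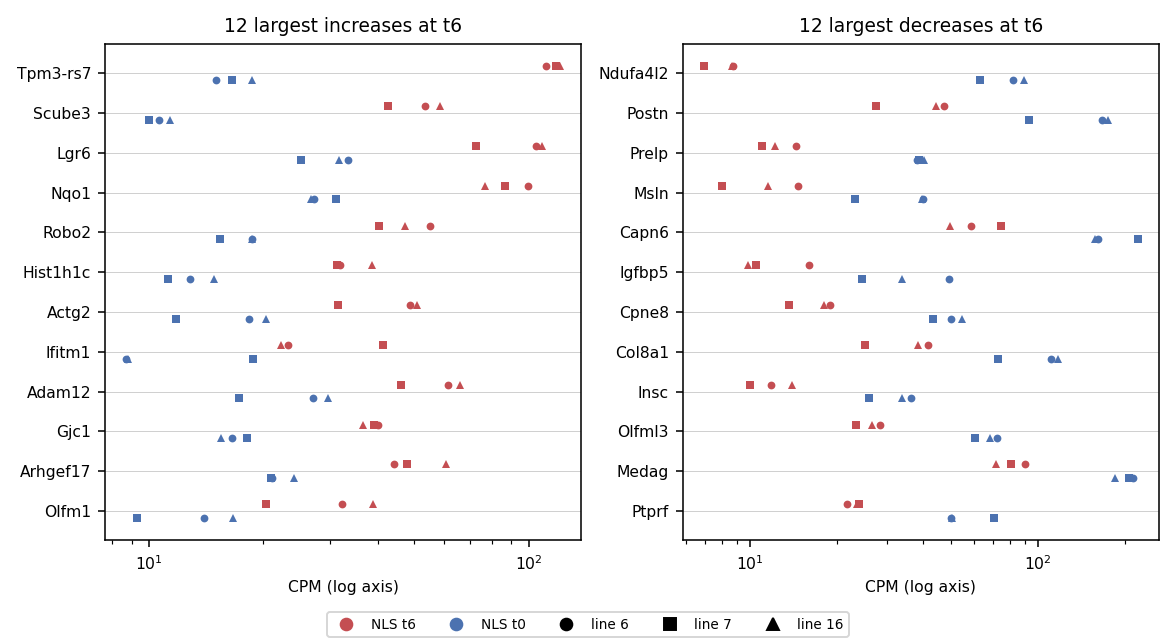
CPM on a log axis of the 12 largest increases (left panel) and the 12 largest decreases (right panel) among genes averaging at least 20 CPM; red points are the 3 t6 libraries, blue points the 3 t0 libraries, and the shape gives the line. The red and blue points of a gene do not overlap, by the choice of genes, and Tpm3-rs7 and Ndufa4l2 have the widest gaps.

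A set of 12 genes had nearly no reads in the t0 libraries and reads in every t6 library. Each had at most 3 reads in each t0 library and was called at least 2-fold higher, while no gene met the mirror-image rule. Only genes with at least 1 CPM in 3 of the 6 libraries were tested, so reads in every t6 library were part of the choice. Tshz3, a zinc finger transcription factor (GRCm38 chromosome 7, 36698118 to 36773553, plus strand), had 153, 136 and 139 reads at t6 against 0 in each t0 library. Its t6 level of 7.14, 7.002 and 6.35 CPM is at least 50.4-fold above a floor of 3 reads per library. Myo18b, a myosin of striated muscle, had 2.85, 2.88 and 2.92 CPM at t6 against 0, 0 and 0 CPM at t0, at least 21.3-fold higher than the same floor. Sall3, a developmental zinc finger factor, had 2.52, 2.16 and 3.24 CPM at t6 against 0, 0 and 0 CPM at t0, at least 19.5-fold higher. All 3 genes were within 0 to 0.111 CPM in the LacZ libraries.

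Cadm1, an adhesion molecule of the immunoglobulin family, had 10.2, 7.72 and 8.497 CPM at t6 against 0.0886, 0 and 0 CPM at t0. The 3 NLS libraries labelled t48 had no Cadm1 reads, and the LacZ libraries had 30.8 to 82.1 CPM. Adam23, a catalytically inactive ADAM protein of neurons, had 6.49, 7.31 and 6.08 CPM at t6 against 0.133, 0.0434 and 0 CPM at t0, and 21.7 to 26.6 CPM at t48. Mef2c, a transcription factor of muscle, heart and neurons, had 2.895, 2.52 and 4.29 CPM at t6 against 0.0443, 0.0867 and 0.0479 CPM at t0. Zfp532, a zinc finger protein, had 7.56, 5.51 and 5.71 CPM at t6 against 0, 0.0867 and 0.144 CPM at t0 and 20.2 to 22.2 CPM in LacZ libraries. The remaining 5 were Prelid2, Mocos, which activates molybdenum enzymes, the growth factor receptor Fgfr2, the palmitoyltransferase Zdhhc15 and the tetraspanin Tspan6, with 1.26 to 2.66 CPM at t6. In the LacZ libraries Prelid2 had 30.4 to 47.3 CPM, Mocos 4.66 to 8.42 CPM and Zdhhc15 3.56 to 13.4 CPM. Fgfr2 had 0 to 0.0513 CPM there and Tspan6 0 to 0.215 CPM. On the length-scaled TPM values, mean levels at t6 ran from 5.27 for Cadm1 and 2.69 for Tshz3 down to 0.925 for Myo18b among the 6 genes with most reads, so all 6 stayed scarce transcripts. These fitted fold changes depend on the handling of 0 reads and are not printed.

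Targets of cAMP and CREB moved moderately. Of 23 tested members of the list 9 were called higher and 2 lower, beside 20% and 18.4% over all genes tested, and the median log2 fold change was 0.31 against -0.0053 over all genes. Without the pairing by line these counts were 4 and 1, beside 12.3% and 10.7% over all genes, and without line 16 they were 6 and 1. Ptgs2, the prostaglandin enzyme cyclooxygenase 2, had 164, 123 and 153 CPM at t6 against 91.9, 69.4 and 90.7 CPM at t0 (log2 fold change 0.81, SE 0.062), and its groups did not overlap. Pde3b and Pde4d, phosphodiesterases that break down cAMP, were higher within each line. Pde3b had 84.04, 95.6 and 63.1 CPM at t6 against 56.1, 69.9 and 38.95 CPM at t0, and Pde4d had 30.2, 27.1 and 16.9 CPM at t6 against 21.98, 21.1 and 11.5 CPM at t0. Line 16 was lowest for both at both labels, the groups overlapped, and by edgeR's quasi-likelihood test with Benjamini-Hochberg adjustment their adjusted p = 1.27e-07 and 0.000117 became 0.124 and 0.356 without the pairing (ranges over the alternatives 1.19e-14 to 0.192 and 1.25e-05 to 0.395). Lower were Txnip, a thioredoxin inhibitor (log2 fold change -0.26, SE 0.071), and Dusp1, a MAP kinase phosphatase (log2 fold change -0.51, SE 0.12). By edgeR's quasi-likelihood test with Benjamini-Hochberg adjustment both calls ended without line 16, at adjusted p = 0.198 and 0.0701, and that of Txnip also without the pairing, at 0.578 (ranges 0.00322 to 0.578 and 8.76e-06 to 0.124). Outside the naming rule, and chosen after their values were seen, the familiar CREB targets Nr4a1 and Fos were not called. Nr4a1, an orphan nuclear receptor, had 12.9, 7.77 and 5.85 CPM at t6 against 13.6, 3.6 and 4.22 CPM at t0, and Fos, a subunit of AP-1, had 1.35, 1.39 and 1.46 CPM at t6 against 1.42, 0.954 and 1.29 CPM at t0, with overlapping groups.

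Immediate early genes, which cells transcribe within minutes of a signal without new protein, had 10 of 30 tested members higher and 3 lower (median 0.16). The counts were 6 and 2 without the pairing. Egr3, a zinc finger factor, had 26.1, 28.5 and 29.4 CPM at t6 against 13.1, 12.4 and 13.8 CPM at t0 (log2 fold change 1.09, SE 0.082). Arc, a cytoskeletal regulator of synapses, had 49.5, 41.2 and 65.8 CPM at t6 against 28.3, 22.64 and 34.6 CPM at t0 (log2 fold change 0.87, SE 0.066), and Egr1 had 79.1, 86.2 and 87.2 CPM at t6 against 53.4, 61.1 and 62.9 CPM at t0 (log2 fold change 0.51, SE 0.057). In each of these genes all t6 libraries were above all t0 libraries. Klf4, a zinc finger factor, was lower (log2 fold change -0.19, SE 0.043), as was the small Maf protein Maff (log2 fold change -0.26, SE 0.062). Klf2, a relative of Klf4, was at 0.887 to 1.60 CPM at t6 against 1.74 to 2.17 CPM at t0 (log2 fold change -0.77, SE 0.26), and its adjusted p of 0.0257 by edgeR's quasi-likelihood test with Benjamini-Hochberg adjustment was 0.138 without line 16 (range 0.0107 to 0.238).

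The cAMP response element is the palindrome TGACGTCA, and CREB also binds the 5-base core TGACG, so promoters were searched on both strands for both, the core being counted also inside the palindrome. Of promoters in the RefSeq table (GRCm38.p6, 250 bases before the start of a gene to 50 after), the palindrome was in 3.04% for genes called higher, 3.93% for genes called lower and 3.73% for all genes tested. The core was in 35.3%, 36% and 36.6%. Promoters were matched for 1807 higher, 1653 lower and 8910 tested genes. Of the members of the 2 lists above that had a promoter, the palindrome was in 1 of 7 called higher, in 2 of 5 called lower and in 1 of 21 not called. The shares of other motifs were 5.31% higher, 8.23% lower and 5.97% overall for the AP-1 site TGANTCA, and 13.3%, 16.6% and 14% for the TEAD site GGAATG. They were 12.9%, 11% and 11.9% for the E-box CACGTG and 30.2%, 30.9% and 29.8% for the ACGTG core of the hypoxia response element, which overlaps the E-box. A match describes the letters only. Shown are 2 promoters of genes called higher, chosen after the values were seen: Areg, which encodes the EGF receptor ligand amphiregulin and holds the palindrome, and Ptgs2, which holds 1 core, both on the plus strand (chr5:91139349-91139648 and chr1:150099781-150100080), with the palindrome or cores in capitals.
Areg: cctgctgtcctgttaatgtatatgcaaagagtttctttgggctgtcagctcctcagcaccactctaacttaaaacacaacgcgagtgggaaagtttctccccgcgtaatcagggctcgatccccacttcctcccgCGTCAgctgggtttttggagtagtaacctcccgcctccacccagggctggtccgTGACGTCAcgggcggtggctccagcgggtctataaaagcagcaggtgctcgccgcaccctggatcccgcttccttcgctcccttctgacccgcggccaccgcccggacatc
Ptgs2: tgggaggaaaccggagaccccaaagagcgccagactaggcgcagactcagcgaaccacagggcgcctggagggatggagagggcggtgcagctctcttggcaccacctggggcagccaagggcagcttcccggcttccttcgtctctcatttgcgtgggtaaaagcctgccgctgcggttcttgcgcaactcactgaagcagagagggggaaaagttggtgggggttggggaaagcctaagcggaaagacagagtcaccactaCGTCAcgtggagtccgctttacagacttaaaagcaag
Areg had 15.4, 19.3 and 8.82 CPM at t6 against 5.01, 9.15 and 1.96 CPM at t0 (log2 fold change 1.5, SE 0.21). Line 16 was lowest and line 7 highest at both labels, so the groups overlapped, while within each line t6 was above t0. Its adjusted p by edgeR's quasi-likelihood test with Benjamini-Hochberg adjustment was 0.000845 with the pairing, and the call ended without it.

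Genes that respond to ERK, the kinase at the end of the RAS and RAF cascade, had the highest share of increases among the lists with at least 10 tested members. Of 18 tested members 12 were called higher and none lower by edgeR's quasi-likelihood test, with 14 higher and 0 lower at an unadjusted p below 0.05 and 11 higher and 0 lower by DESeq2. The median log2 fold change was 0.41. Etv4, an ETS transcription factor, had 32.8, 37.1 and 31.8 CPM at t6 against 13.6, 16.5 and 14.5 CPM at t0 (log2 fold change 1.19, SE 0.072). Dusp6, a phosphatase that switches ERK off, had 19.7, 20.9 and 18.9 CPM at t6 against 11.2, 12.8 and 10.1 CPM at t0 (log2 fold change 0.8, SE 0.087). Ccnd1, which encodes cyclin D1 and starts the cell cycle, had 913, 1032 and 975.4 CPM at t6 against 706, 823 and 733 CPM at t0 (log2 fold change 0.37, SE 0.04). In each of the 3 genes the groups did not overlap, and at NLS t48 Dusp6 was at 8.73 to 12.2 CPM and Ccnd1 at 592 to 690 CPM, near or below t0.

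Growth factor ligands had 11 of 22 members higher and 1 lower (median 0.15), and 5 higher without the pairing. Without line 6 7 were higher and 2 lower. By DESeq2 8 were higher and 1 lower, and at an unadjusted p below 0.05 the edgeR counts were 12 and 2. Fgf7, a fibroblast-derived ligand for epithelial cells, had 387, 324 and 307 CPM at t6 against 286, 238 and 207 CPM at t0 (log2 fold change 0.48, SE 0.044). Vegfc, a lymphatic growth factor, had 23.8, 17.9 and 22.1 CPM at t6 against 13.7, 11.6 and 15.04 CPM at t0 (log2 fold change 0.66, SE 0.088), and Fgf2 had 31.3, 26.3 and 35.4 CPM at t6 against 21.2, 20.8 and 21.8 CPM at t0 (log2 fold change 0.54, SE 0.078). Gdnf, a ligand of the receptor RET, was lower within each line (71.8, 46.9 and 67.4 CPM at t6 against 101, 65.6 and 94.1 CPM at t0). Its groups overlapped, and without the pairing its adjusted p by edgeR's quasi-likelihood test with Benjamini-Hochberg adjustment was 0.0671 (range 2.51e-07 to 0.18). Receptor tyrosine kinases had 5 of 24 members higher and 5 lower (4 and 3 without the pairing or without line 16), close to the share over all genes. Among them were Axl (log2 fold change 0.35, SE 0.039) and Epha2 (log2 fold change 0.34, SE 0.055), higher, and Ryk, a Wnt receptor (log2 fold change -0.26, SE 0.04), and Ephb3 (log2 fold change -0.28, SE 0.056), lower.

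Cell adhesion molecules, chiefly cadherins, protocadherins and immunoglobulin-family proteins, had 15 of 25 tested members higher and 3 lower, with a median of 0.43. Pcdh7, a protocadherin, had 66.8, 64.6 and 77.9 CPM at t6 against 35.2, 29.4 and 37.03 CPM at t0 (log2 fold change 1.04, SE 0.057). Pcdh1 had 18.49, 17.9 and 23.4 CPM at t6 against 7.399, 5.55 and 8.19 CPM at t0 (log2 fold change 1.5, SE 0.09), and both were near their t0 levels at t48, at 31.6 to 37.2 and 6.55 to 7.804 CPM. Cdh15, the cadherin of muscle precursors, went the other way with 6.54, 5.2 and 6.81 CPM at t6 against 23.3, 13.4 and 26.9 CPM at t0 (log2 fold change -1.76, SE 0.20). The groups of all 3 genes were apart. Pcdh17 (log2 fold change -0.2, SE 0.052) and Nrcam (log2 fold change -0.33, SE 0.11) were lower, but their calls ended without the pairing, at adjusted p = 0.129 and 0.123, and that of Nrcam also without line 16, at 0.108, by edgeR's quasi-likelihood test with Benjamini-Hochberg adjustment (ranges 0.00277 to 0.129 and 0.00346 to 0.224).

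Axon guidance genes, whose ligands and receptors also steer migrating cells outside the nervous system, had 18 of 40 members higher and 7 lower (median 0.16). The 3 increases with the smallest p were receptors. Besides Robo2, its relative Robo1 had 37.3, 33.5 and 32.5 CPM at t6 against 17.6, 19.3 and 16.4 CPM at t0 (log2 fold change 0.95, SE 0.078). Unc5c, a netrin receptor, had 24.4, 26.3 and 23.2 CPM at t6 against 8.86, 13.9 and 8.96 CPM at t0 (log2 fold change 1.24, SE 0.11) and 0.531 to 0.981 CPM at t48. The 3 decreases with the smallest p were ligands. Sema3c, a secreted semaphorin, had 169, 160.2 and 149.6 CPM at t6 against 327, 336 and 336 CPM at t0 (log2 fold change -1.06, SE 0.047), with values nearly equal among lines. Ntn1, netrin 1, had 298, 286 and 284 CPM at t6 against 400.5, 391 and 381 CPM at t0 (log2 fold change -0.43, SE 0.04), and Ntn4 a log2 fold change -0.41, SE 0.064. Integrins, the receptors for matrix, had 5 of 14 higher and 3 lower (3 and 3 without the pairing, without line 6 or without line 16), with Itga6, a laminin receptor subunit (log2 fold change 0.41, SE 0.05), and Itga7, its relative in muscle (log2 fold change -0.61, SE 0.078), on opposite sides.

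Patterning transcription factors had 14 of 43 tested members higher and 5 lower (median 0.09), and 10 and 1 without the pairing. Without line 6 or without line 16 the counts were 11 and 3. Beside Tshz3, Sox11, a factor of neural progenitors, had 10.1, 8.65 and 10.6 CPM at t6 against 2.26, 1.301 and 1.82 CPM at t0 (log2 fold change 2.45, SE 0.14) and 18.2 to 21.7 CPM at t48. Runx1, a factor of blood and mesenchyme, had 48.8, 48.5 and 56.2 CPM at t6 against 32.1, 36.6 and 41.3 CPM at t0 (log2 fold change 0.48, SE 0.057). Osr1, a factor of kidney and limb mesenchyme, fell to 9.48, 11.7 and 10.4 CPM at t6, against 21.6, 24.5 and 27.1 CPM at t0 (log2 fold change -1.21, SE 0.082). These 3 genes had no overlap between groups. Ebf1 (log2 fold change -0.56, SE 0.10) was lower with the pairing alone, with adjusted p = 0.0595 without it by edgeR's quasi-likelihood test with Benjamini-Hochberg adjustment (range 7.47e-05 to 0.158).

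Among genes of the extracellular matrix, of 17 tested basement membrane genes 8 were higher and 6 lower (median 0.11, and 6 and 3 without the pairing), and of 35 interstitial collagens and their enzymes 6 were higher and 20 lower (median -0.27). Col4a1 and Col4a2, the paired chains of the basement membrane collagen, had 151, 130.3 and 164 CPM at t6 against 75.5, 68.97 and 78.5 CPM at t0 (log2 fold change 1, SE 0.057) and 242, 193 and 247 CPM at t6 against 138, 111 and 131 CPM at t0 (log2 fold change 0.84, SE 0.061). Col3a1, a fibrillar collagen of soft tissue, had 1679, 1720 and 1624 CPM at t6 against 2889, 2689 and 2968 CPM at t0 (log2 fold change -0.77, SE 0.048), and 5194 to 5649 CPM at t48. P4ha2, a prolyl hydroxylase that stabilises collagen and is induced in low oxygen, had 123, 119.7 and 132 CPM at t6 against 209.8, 185 and 222 CPM at t0 (log2 fold change -0.71, SE 0.045). The groups of all 4 genes were apart. Lama4, a laminin chain, and Nid2, a nidogen, both of basement membrane, were lower. Lama4 had 107, 104 and 95.2 CPM at t6 against 189, 207 and 190 CPM at t0 (log2 fold change -0.93, SE 0.046), and Nid2 had 122, 129 and 119 CPM at t6 against 173, 194 and 172 CPM at t0 (log2 fold change -0.54, SE 0.045). Higher collagen genes were Col7a1, the anchoring fibril collagen (log2 fold change 0.61, SE 0.093), Loxl3, a crosslinking enzyme (log2 fold change 0.33, SE 0.052), and Pcolce2, a cofactor of procollagen cleavage (log2 fold change 0.46, SE 0.075). On the length-scaled TPM values Col7a1 had 17.1, 8.84 and 8.86 at t6 against 7.82, 9.25 and 7.503 at t0. Its groups overlapped there, and those of Loxl3 and Pcolce2 were apart. The lower sum of the fibroblast markers at t6, given above, came mostly from Col1a1, Col1a2 and Col3a1. Whether fibroblasts are present in these libraries or have a part in these differences was not tested.

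Of 39 matricellular proteins and proteoglycans 9 were higher and 19 lower (median -0.16). Thbs1, which encodes thrombospondin 1 and can activate TGF-beta, had 698, 512 and 815 CPM at t6 against 330.2, 252 and 384 CPM at t0 (log2 fold change 1.06, SE 0.05). Fbln1, a fibulin, had 3.13, 4.74 and 3.65 CPM at t6 against 0.576, 0.607 and 0.9102 CPM at t0 (log2 fold change 2.45, SE 0.20) and 18.7 to 21.4 CPM at t48. The largest decrease in the list was in Fndc1, a secreted protein with fibronectin domains, at 0.794, 0.824 and 0.639 CPM at t6 against 14.1, 14.1 and 14.3 CPM at t0 (log2 fold change -4.23, SE 0.16). Ccn5, a growth-restraining member of the CCN family, had 2.29, 2.21 and 1.69 CPM at t6 against 17.2, 29.4 and 17.5 CPM at t0 (log2 fold change -3.34, SE 0.14), and Abi3bp, a matrix protein that binds Abi3, had 0.794, 2.37 and 0.777 CPM at t6 against 3.41, 13.6 and 4.74 CPM at t0 (log2 fold change -2.43, SE 0.17). Line 7 was highest for Ccn5 and Abi3bp at t0. Of 35 matrix proteases and inhibitors 11 were higher and 8 lower. Mmp9 and Mmp2, both gelatinases, went opposite ways, with 8.96, 9.37 and 11.3 CPM at t6 against 1.86, 1.69 and 1.29 CPM at t0 (log2 fold change 2.59, SE 0.18) and 477, 485 and 440.1 CPM at t6 against 672, 704 and 657 CPM at t0 (log2 fold change -0.54, SE 0.04). Mmp19 (log2 fold change -0.57, SE 0.069) and the procollagen protease Adamts2 (log2 fold change -0.7, SE 0.081) were lower.

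Hypoxia and glycolysis genes, targets of the oxygen-sensitive factor HIF, had the lowest median of the lists with at least 10 tested members. Of 36 tested members 22 were lower and 1 higher, with a median of -0.27. Higd1a, a mitochondrial hypoxia protein, had 48.2, 42.3 and 51.8 CPM at t6 against 80.7, 73.4 and 80.5 CPM at t0 (log2 fold change -0.72, SE 0.054). Pdk1, the kinase that keeps pyruvate out of the citric acid cycle, had 53.7, 68.2 and 64.2 CPM at t6 against 88.2, 114 and 101 CPM at t0 (log2 fold change -0.7, SE 0.051). Both genes' groups were apart, and both were near the t0 level at t48, at 69.8 to 78.4 and 94.5 to 106 CPM. The 1 member called higher was Vegfa, the vascular growth factor, with 174, 161 and 163 CPM at t6 against 175, 137 and 144 CPM at t0 (log2 fold change 0.13, SE 0.046) and overlapping groups. Its adjusted p of 0.029 by edgeR's quasi-likelihood test with Benjamini-Hochberg adjustment was 0.329 without the pairing and 0.223 without line 16 (range 0.00283 to 0.398).

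Sterol and fatty acid synthesis had 22 of 38 members lower and 3 higher (median -0.19). Lower were Fads2, a desaturase of polyunsaturated fatty acids, with 153, 141 and 137 CPM at t6 against 211, 202 and 219 CPM at t0 (log2 fold change -0.56, SE 0.048), Scd2, a desaturase that makes oleate (log2 fold change -0.4, SE 0.043), and Cyp51, the lanosterol demethylase (log2 fold change -0.38, SE 0.04). Dhcr7, which completes cholesterol, was higher, with 69.5, 65.8 and 64.96 CPM at t6 against 45.3, 48.3 and 46.1 CPM at t0 (log2 fold change 0.52, SE 0.051). Steps of 1 pathway thus lay on both sides. Fasn, the fatty acid synthase (log2 fold change 0.2, SE 0.049), lost its call without the pairing and without line 16, at adjusted p = 0.131 and 0.113 by edgeR's quasi-likelihood test with Benjamini-Hochberg adjustment (range 0.000732 to 0.131). Redox genes regulated by NRF2 had 16 of 34 members lower and 6 higher, and 10 and 3 without the pairing. Without line 16 12 were lower and 3 higher. Nqo1 was far from the rest: the next increases by p were Gsto1 (log2 fold change 0.35, SE 0.043) and Taldo1 (log2 fold change 0.32, SE 0.05), and malic enzyme Me1 fell (log2 fold change -0.35, SE 0.043). The glutathione transferases Gstm1 and Gstm2 were lower as well (-0.33 and -0.43), though they are similar in sequence and reads may have been shared.

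Cytosolic ribosomal proteins had 34 of 52 members lower and 4 higher (median -0.18), and 20 and 1 without the pairing. Without line 6 21 were lower and 7 higher, and without line 16 27 were lower and 2 higher. Rpl10a had 266, 236 and 246 CPM at t6 against 332, 304 and 302 CPM at t0 (log2 fold change -0.33, SE 0.049), Rps6 had 276, 262 and 274 CPM at t6 against 364, 308 and 328 CPM at t0 (log2 fold change -0.3, SE 0.048), and Rpl26 a log2 fold change -0.28, SE 0.046. The groups of Rpl10a and Rps6 were apart. Many processed copies of these genes exist, so read sharing makes single members uncertain. These transcripts are short, with a median of 755 bases, and calls moved with transcript length over all genes. With the genes in 5 classes of equal size by length, 11.4% of the shortest class were called higher and 22.9% lower, with a median log2 fold change of -0.072. In the longest class 30.6% were higher and 13% lower, with a median of 0.059. The part of transcript length in the difference of this or other lists was not tested. Adhesion and guidance genes had median lengths of 4768 and 4729 bases, within the longest class, whose genes start at 4591 bases.

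**Figure D4:**
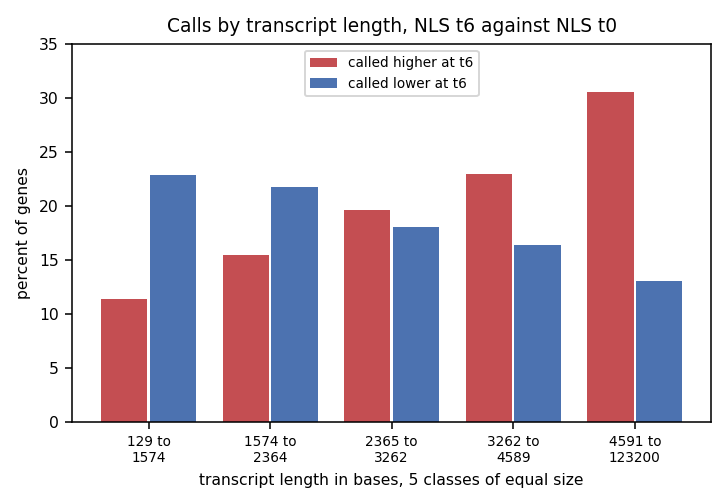
Percent of genes called higher (red) and lower (blue) at t6 in 5 classes of equal size of the 11556 genes by transcript length in bases. Over the 5 classes the share called higher goes up from 11.4% to 30.6%, and the share called lower goes down from 22.9% to 13%.

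Other genes of protein synthesis and folding had smaller shares. Ribosome biogenesis had 13 of 40 members higher and 3 lower (median 0.07), and 8 and 1 without the pairing and 10 and 1 without line 6, among them Utp15 (log2 fold change 0.4, SE 0.053) and Fbl, the rRNA methyltransferase fibrillarin (log2 fold change 0.31, SE 0.047). Of 75 mitochondrial ribosomal proteins 13 were higher and 18 lower, near the shares over all genes (6 and 8 without the pairing, 12 and 10 without line 6, and 8 and 8 without line 16). None of 13 mRNAs encoded by mitochondrial DNA was called by edgeR's quasi-likelihood test or DESeq2, and none had an unadjusted p below 0.05 in edgeR. Their fitted log2 fold changes ran from -0.69 to -0.095, and mt-Co2, a subunit of cytochrome oxidase, had 192, 247 and 185 CPM at t6 against 239.9, 562 and 262 CPM at t0 (log2 fold change -0.65, SE 0.30), with line 7 far above the others at t0. Chaperones of the endoplasmic reticulum had 11 of 22 members lower and none higher by edgeR's quasi-likelihood test, with 12 lower and 0 higher at an unadjusted p below 0.05 and 11 and 0 by DESeq2. Without the pairing 5 were lower, and without line 6 or without line 16 7 were. Herpud1, a protein of ER quality control, had 71.2, 59.6 and 69.9 CPM at t6 against 92.8, 72.4 and 96.2 CPM at t0 (log2 fold change -0.38, SE 0.05), and the lectin chaperone Calr a log2 fold change -0.2, SE 0.043. ATF4 targets, which respond to amino acid shortage, had 11 of 31 lower and 2 higher, and 6 and 1 without the pairing. Without line 6 7 were lower, without line 7 16 were, and without line 16 5 were. Mitochondrial serine and folate enzymes were among them, with Aldh1l2 at 349, 301 and 309.6 CPM at t6 against 478, 409.9 and 514 CPM at t0 (log2 fold change -0.54, SE 0.068) and Shmt2 at -0.33, SE 0.051.

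Cell division genes were called higher more often than lower. Of 23 G2/M genes 12 were higher and 2 lower (median 0.12), and of 26 G1/S and replication genes 7 were higher and 2 lower (median 0.09). Without the pairing 7 G2/M and 4 G1/S genes were higher, and without line 6 8 of each were, and in both fits the 4 lower calls ended. Without line 16 7 and 4 were higher and 1 of each list lower. Without line 7 12 G2/M and 5 G1/S genes were higher, and 1 and 2 lower. By DESeq2 10 G2/M and 4 G1/S genes were higher, and 1 and 0 lower. The G1/S share higher was near that over all genes without the pairing, without line 16 and by DESeq2. Rrm1, the large subunit of ribonucleotide reductase, had 387, 411 and 370.3 CPM at t6 against 281, 316 and 272 CPM at t0 (log2 fold change 0.43, SE 0.045), and Prc1, which bundles spindle microtubules, 321, 327 and 288 CPM at t6 against 248, 256 and 235 CPM at t0 (log2 fold change 0.34, SE 0.039). The mitotic kinase Plk1 (log2 fold change 0.32, SE 0.041) and Ccnb1, cyclin B1 (log2 fold change 0.32, SE 0.042), were higher too. Groups of these 4 genes were apart. Ccnd2, another D-type cyclin, was lower (log2 fold change -0.31, SE 0.05), opposite to Ccnd1. Among chromatin genes, with 7 of 26 higher and 2 lower (4 and 2 without the pairing, 4 and 1 without line 16, and 5 and 1 without line 6), Ezh2 and Eed, subunits of the Polycomb complex that methylates histone H3, were higher (log2 fold change 0.39, SE 0.052, and log2 fold change 0.42, SE 0.062). Smarca2, an ATPase of SWI/SNF remodellers, fell to 97.8, 102 and 88.99 CPM at t6, against 126, 155 and 125 CPM at t0 (log2 fold change -0.49, SE 0.049). Of 17 p53 targets 5 were higher and 1 lower, led by Pmaip1, the death-promoting protein Noxa, at 2.801, 1.96 and 3.61 CPM at t6 against 0.532, 0.173 and 0.623 CPM at t0 (log2 fold change 2.66, SE 0.27).

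The IGF axis and the RNA-binding proteins around it had 6 of 19 members higher and 6 lower. Igf2bp3, an RNA-binding protein of embryos and tumours, had 14.7, 12.9 and 12.8 CPM at t6 against 0.0886, 0.0867 and 0.335 CPM at t0 and 2.67 to 3.78 CPM at t48. Its relative Igf2bp1 had 15.97, 17.7 and 16.99 CPM at t6 against 7.44, 10.6 and 10.5 CPM at t0 (log2 fold change 0.83, SE 0.11), and Hmga2, an embryonic chromatin protein, 144, 175 and 154 CPM at t6 against 81.5, 109.7 and 95.2 CPM at t0 (log2 fold change 0.73, SE 0.052). Secreted regulators were lower: Igfbp4 at 49.2, 51.7 and 44.9 CPM at t6 against 87.6, 89.4 and 78.8 CPM at t0 (log2 fold change -0.81, SE 0.089), Igfbp2 at -1.63, SE 0.28 and the protease Pappa2 at -1.38, SE 0.21. At t48 Hmga2 was at 54.3 to 56.8 CPM, below its t0 libraries, and Igf2bp1 at 18 to 21.6 CPM, above its t6 libraries.

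Signalling pathways read through single genes went both ways. Of 30 Wnt genes 8 were higher and 10 lower (median -0.11). Lef1, a nuclear partner of beta-catenin, had 8.03, 6.64 and 7.54 CPM at t6 against 1.95, 1.34 and 2.06 CPM at t0 (log2 fold change 2.06, SE 0.16), and the receptors Lrp5 (log2 fold change -0.66, SE 0.059) and Lgr4 (log2 fold change -0.66, SE 0.073) were lower. The secreted antagonist Dkk3 (log2 fold change 0.58, SE 0.047) was higher. BMP and TGF-beta genes had 9 of 33 higher and 6 lower, and 5 and 4 without the pairing, with Tgfb1 at 41.6, 42.4 and 50.8 CPM at t6 against 28.98, 26.9 and 30.8 CPM at t0 (log2 fold change 0.64, SE 0.062) and the ligand Bmp4 lower (log2 fold change -0.77, SE 0.1). Notch genes had 6 of 14 higher and 4 lower, 3 and 1 without the pairing, 4 and 2 without line 7, and 5 and 1 without line 16, with the coactivator Maml3 higher (log2 fold change 0.64, SE 0.095) and Hes6 lower (log2 fold change -0.51, SE 0.088). Targets of YAP and TAZ had 6 of 22 higher and 6 lower (median 0.02), and 3 and 3 without the pairing. Without line 6 5 were higher and 3 lower, and without line 16 3 were higher and 6 lower. The widest of these was Ankrd1, a stretch-responsive nuclear protein, with 6.72, 3.55 and 3.52 CPM at t6 against 32.4, 12.2 and 27.2 CPM at t0 (log2 fold change -2.36, SE 0.27). SRF and contractile genes had 10 of 28 higher and 4 lower, and 3 and 1 without the pairing, where the share higher was near that over all genes, and included Flna, which crosslinks actin, at 2354, 2072 and 2530 CPM at t6 against 1880, 1654 and 2071 CPM at t0 (log2 fold change 0.31, SE 0.042). Ion channels and calcium handling had 12 of 37 higher and 9 lower, and 8 and 4 without the pairing or without line 16. Slc8a1, the sodium-calcium exchanger, had 4.29, 4.12 and 4.25 CPM at t6 against 0.0886, 0.173 and 0.0479 CPM at t0 and 12.9 to 16.6 CPM at t48, and Stim1, the calcium sensor of the endoplasmic reticulum, had 14.5, 14.4 and 13.7 CPM at t6 against 7.67, 7.29 and 5.65 CPM at t0 (log2 fold change 1.05, SE 0.099). The groups of Lef1 and Stim1 were apart. Those of Slc8a1 had to be, since its t0 libraries were all below the 1 CPM that a tested gene needed in 3 libraries.

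Immune genes also went both ways. Chemokines and cytokines had 6 of 17 higher and 4 lower, and 4 and 1 without the pairing and 6 and 2 without line 7. Cx3cl1, the membrane-bound chemokine fractalkine, had 82.1, 99.98 and 102 CPM at t6 against 45.8, 53.5 and 50.6 CPM at t0 (log2 fold change 0.92, SE 0.055), and Csf1, the growth factor of macrophages, 759, 786 and 744 CPM at t6 against 592, 577 and 548 CPM at t0 (log2 fold change 0.41, SE 0.04). In both genes the groups were apart. Cxcl1, a neutrophil chemokine, had 15.5, 13.2 and 7.04 CPM at t6 against 33.6, 22.1 and 10.9 CPM at t0, lower within each line but overlapping between groups. Its adjusted p by edgeR's quasi-likelihood test with Benjamini-Hochberg adjustment was 4.47e-05 with the pairing and 0.256 without it (range 4.27e-07 to 0.291). NF-kB targets had 7 of 18 higher and 2 lower, 3 and 1 without the pairing, 3 and 2 without line 7, 6 and 1 without line 6, and 5 and 1 without line 16, with the inhibitor Nfkbie at 0.57, SE 0.087. Interferon-stimulated genes had 1 of 26 higher and 4 lower (1 and 1 without line 7, while without the pairing and without line 16 the higher call ended and 2 were lower), and antigen presentation 3 of 15 higher and 4 lower, among them Psmb8, an immunoproteasome subunit (log2 fold change -0.65, SE 0.061), and B2m, the light chain of MHC class I (log2 fold change 0.27, SE 0.043). Complement and coagulation had 3 of 12 higher and 5 lower (2 and 3 without the pairing, and 1 and 4 without line 16), led by the thrombin receptor F2r with 103, 101 and 122 CPM at t6 against 61.6, 60.9 and 68.6 CPM at t0 (log2 fold change 0.77, SE 0.05).

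**Figure D5:**
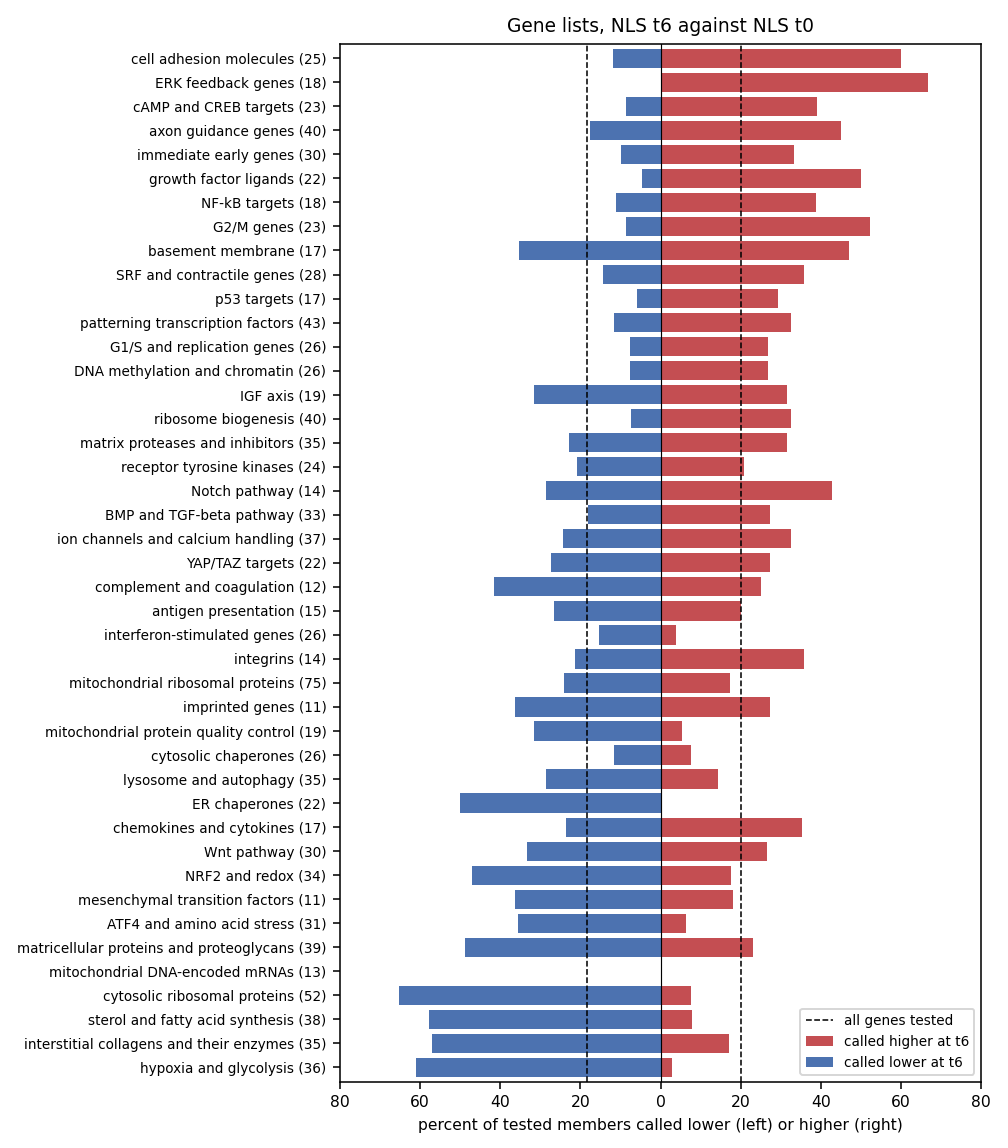
Percent of the tested members of each gene list called higher (red, right) and lower (blue, left) at t6, for lists with at least 10 tested members, ordered by median log2 fold change; the number of tested members is in parentheses and dashed lines mark all genes tested (20% higher, 18.4% lower). Cell adhesion and ERK feedback genes stand at the top, and hypoxia and glycolysis at the bottom.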

How the data were processed

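The submitters' labels describe Trizol extraction and stranded, paired-end Truseq mRNA libraries. The authors' quantification used Salmon 1.2.0 and the GRCm38 build, per their processing notes, and the deposited tables give estimated counts and TPM for every transcript. Which transcript set Salmon was given is not stated in the sources used. Salmon apportions ambiguous reads by its model, which makes genes with near-identical copies uncertain.

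The GENCODE M21 annotation of GRCm38 placed 115898 of 116546 transcripts (99.4%) in 35427 genes, and whole-number gene counts were made by rounding the summed estimated counts. No group held a library deposited in duplicate: counts of any pair differed by at least 7.26 chi-square units per degree of freedom. Genes with CPM of at least 1 in at least 3 of the 6 compared libraries were tested with edgeR 4.0.16's quasi-likelihood test (R 4.3.3, TMM, robust). A gene below 1 CPM in every library of 1 label was thus tested only if every library of the other label reached it. The groups of Fbln1, Fndc1, Igf2bp3, Pmaip1 and Slc8a1 were apart by this choice. All 13 libraries shared the fit, with the cell line number as a block, and p-values were adjusted by Benjamini-Hochberg over 11556 genes and called below 0.05. TMM-scaled CPM are printed; standard errors are of the log2 fold change, and per-line log2 ratios use CPM + 0.25. The deposited TPM values set levels of different genes side by side, and those of Col7a1, Loxl3 and Pcolce2 between libraries. They entered no test.

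The numbers pair the libraries because the labels give the same cell line number. Deviations from the group means correlated across genes at r = 0.0952, 0.345 and 0.333 between libraries of the same line, and at -0.373 to 0.0651 between different lines. Deviations within a group sum to 0, so positive values within lines bring negative ones between lines, and part of this contrast is built in. The t0 library of line 6 had r = 0.0952 with t6 of its own line and 0.0651 with t6 of line 16. The alternatives were no block, fits on 9 or 6 libraries, DESeq2 1.42.0, RLE size factors, other filters on low counts, and leaving out each library or line.

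The 24 genes of largest change averaged at least 20 CPM over the 6 libraries, had non-overlapping groups and 1 direction in every line, and were not predicted genes, clones or pseudogenes. Genes with at most 3 reads in every library of 1 label and called at least 2-fold were ranked by CPM, and 6 taken. Each of the 50 gene lists could add, by smallest p, up to 3 named genes per direction. Members and lists were chosen with earlier results of these data known. The tests were checked on simulated data. Depth bounds the low genes: a fold against 0 reads is a bound against a floor of 3 reads per library and covers counting error only. Promoters came from RefSeq (GRCm38.p6).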

Additional observations from a re-analysis of the deposited data

Results flagged for a closer look

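Among the named genes that were called, together with Adcy10, 5 did not have 1 direction between t6 and t0 in all 3 cell lines. These are log2 changes of 1 library against 1 library per line, and the differences between lines were not tested. Vegfa was at -0.0129 in line 6, 0.234 in line 7 and 0.182 in line 16. Bysl, a ribosome assembly factor, was at -0.234 in line 6, 0.0195 in line 7 and -0.204 in line 16. Lonp1, the mitochondrial protease, was at -0.333 in line 6, 0.000555 in line 7 and -0.37 in line 16. Xaf1, an interferon-induced gene, was at 0.0235 in line 6, -0.434 in line 7 and -0.475 in line 16. Adcy10 was at 0.0163 in line 6, -0.146 in line 7 and 0.643 in line 16, the last from about 1 CPM.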

How the results depend on the processing

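Without the replicate block 2650 genes were called (1419 higher, 1231 lower), against 4434 with it, and 2648 of them were shared. With the 6 compared libraries alone and no replicate block the calls were 1813 (995 higher, 818 lower). Leaving out 1 library gave 3357 to 3959 calls, and leaving out a line 2902 (line 16, with 1315 lower) to 3747 (line 7); the lower calls over all these ran from 1315 to 1911. Genes called with at least a 2-fold difference were 298 as reported, but 499 with no filter on low counts and 491 with edgeR's own filter, as more scarce genes entered. The other alternatives kept these counts within 1.5 times. No called gene changed sign under any of the 18 alternatives.

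Of the 262 named genes besides Adcy10, 258 were called, and 174 kept their call under every alternative. The setting that ended most calls was the fit on 6 libraries without a block (82), then no block with 13 libraries (44) and leaving out line 16 (29). Among genes named in the text, Abi3bp, B2m, Calr, Epha2, Flna, Gstm1, Herpud1, Hes6, Ifitm1, Itga6, Klf4, Lrp5, Maff and Mmp19 lost theirs in the first of these alone. Adcy10 was not called under any alternative. With 3 libraries per label, genes near 1 CPM have wide errors.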
